A study of Drosophila melanogaster with 3 samples.

Results

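The broad Caudal domains described here are the widest peaks of a ChIP-seq peak list made from Drosophila melanogaster whose title names the transgene cad-GFP. They are all peaks on 2L, 2R, 3L, 3R, 4 and X with a width, end minus start, of 4000 bp or more. The domains were thus chosen by a measured value, their width, which is not a finding here. This rule took 506 peaks out of the 7556 on the 6 chromosome arms (6.70%) and of 7579 in the whole list. The 23 peaks on other sequences were at most 1555 bp wide, so 0 of them would have met the width.

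The ChIP group is 1 sample, with 3dFemale as its stage label and 7T as its source label. In chromatin immunoprecipitation followed by sequencing (ChIP-seq), an antibody recovers a protein together with the DNA cross-linked to it. Here an antibody labelled NWG-GFP was used against the tagged protein, and the title of the sample covers replicates 1 and 2. The 2 input samples, of the same stage and source, are chromatin taken before the antibody was added, and no values of theirs were analysed here. The growth text names y w, VK33 flies and describes the collection of embryos, which goes against the stage label. The tissue, the number of animals and what drives the transgene are not stated in the sources used here. With 1 list there is no replicate error for any value below, no difference was tested, and the depth of reads is unknown.

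Caudal is a homeodomain transcription factor and the fly relative of the vertebrate Cdx proteins. In the embryo it forms a gradient that is highest at the posterior, where it activates segmentation genes and the programme of the hindgut. In the adult it is known from the intestine, where it holds down antimicrobial peptide genes. A peak caller joins neighbouring positions that pass its threshold, so a wide peak can hold several binding sites close together, and the list gives no summits to tell them apart. Whether Caudal itself was bound in each domain was not tested.

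All positions are on BDGP5 (dm3), numbered from 1. No gene annotation or sequence of that build was used here, so the domains are named by position, and the genes they cover were not placed.

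The domains made up a small share of the peaks and a larger share of the covered sequence. Their summed width was 2.91 Mb of the 13.5 Mb inside any arm peak (21.6%), which is 2.45% of the arms from first to last peak. Widths ran up to 15741 bp, with a median of 5087.5 bp and with 4466 and 6322 bp as the lower and upper quartile. From 1 kb upward the number of peaks fell from each class of 1 kb to the next, up to 8 kb. In classes of 1 kb, each including its lower bound only, there were 2959 peaks of 1 to 2 kb, 1184 of 2 to 3 kb, 520 of 3 to 4 kb, 235 of 4 to 5 kb, 123 of 5 to 6 kb, 56 of 6 to 7 kb and 34 of 7 to 8 kb. Classes of width below are bounded in the same way. The width of 4000 bp is thus a point on a continuous scale. Widths of 8 kb or more were held by 58 domains, and widths of 10 kb or more by 16.

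Peaks on either side of the limit had similar values of the score, the authors' deposited value for a peak, which is not defined in the file and was used only to describe and order peaks. The 5 narrowest domains were 4001 to 4007 bp wide and scored 124.48 to 1511.41, and the 5 peaks just under the limit were 3990 to 3994 bp wide and scored 295.52 to 1102.87. The median score was 641.81 for the 64 domains under 4200 bp, against 602.22 for the 64 peaks of 3800 bp to the limit.

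Because the score comes from the same peak call as the width, it is given as a description only. The domains had a median score of 919, with quartiles of 489 and 1622, against 439.99 for the peaks of 2 to 4 kb and 184.62 for all narrower peaks. Scores of 1000 or more were held by 236 domains (46.6%), by 230 peaks of 2 to 4 kb (13.5%) and by 276 of all narrower peaks (3.91%). Within the domains the median score was 757.77 at 4 to 5 kb, 927.35 at 5 to 6 kb, 1206 at 6 to 8 kb and 1814 at 8 kb or more. Width did not fix the score, since each of these classes ranged over more than an order of magnitude.

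Of the 31 arm peaks at or above 3100, a value that many of the highest scores share, 27 were broad domains, 25 of them at 3100 and 2 above it. The other 4 were the peaks at 2L:3301072-3303860, 2L:12009506-12013013, 2R:19599197-19602535 and 3R:17121319-17125151. At the other end, 28 domains (5.53%) scored under the list median of 198.7, against 53.1% of all narrower peaks. The lowest was 2L:6068800-6074760, which was 5961 bp wide and scored 53.49, just above the floor of 50. The next 4 were 2R:17045635-17049758 with 64.47, X:15602961-15608329 with 69.68, 2R:14325927-14330900 with 76.22 and 2R:14042369-14046448 with 90.38.

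**Figure D1:**
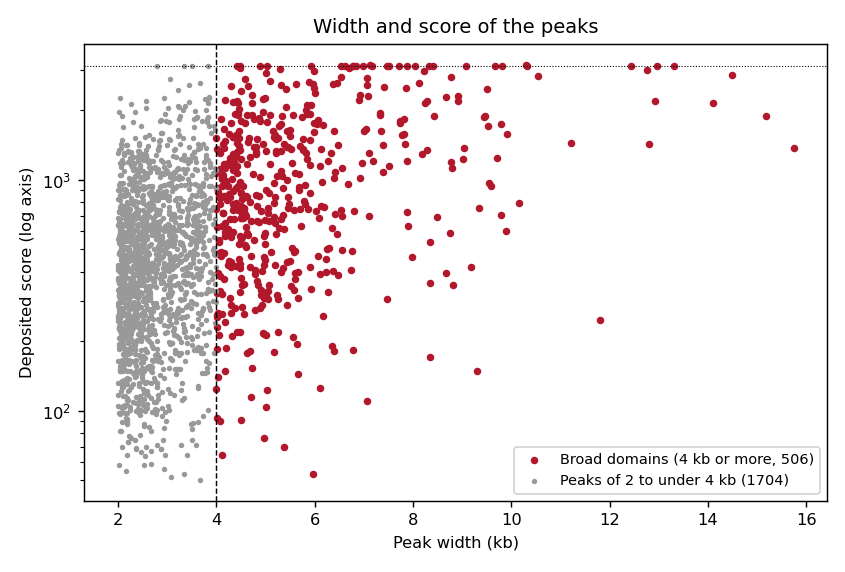
Width in kb (x axis) against the deposited score on a log axis (y axis) for each broad domain (red) and each arm peak of 2 to under 4 kb (grey). The dashed line marks 4 kb and the dotted line the score of 3100, at or above which 27 domains lie; the cloud is continuous across 4 kb, and 28 domains score under 198.7.

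The widest domain was X:8372647-8388387, with 15741 bp and a score of 1369.9. It was followed by 2L:6076776-6091949 (15174 bp, score 1890.37), 3R:5901869-5916355 (14487 bp, score 2840.79), 2L:1116042-1130138 (14097 bp, score 2146.34) and 3L:9411377-9424686 (13310 bp, score 3100). The rest of the 10 widest were X:12552050-12565019 with 12970 bp, X:7584126-7597055 with 12930 bp, 2L:5976455-5989256 with 12802 bp, X:3564680-3577446 with 12767 bp and 3R:4871972-4884411 with 12440 bp. Thus the X held 4 of the 10, 2L held 3, 3R held 2, 3L held 1 and 2R held 0. The widest on 2R was 2R:4552801-4562947 with 10147 bp and a score of 790.84. The single domain of chromosome 4 was at 4:1048499-1052999, 4501 bp wide with a score of 772.99.

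Of domains of 4000 bp or more, the X carried the most. It held 116 of the 506 (22.9%), against 109 on 3R, 106 on 2R, 90 on 2L, 84 on 3L and 1 on chromosome 4. This order depended on the width chosen. With 3000 bp the X held 207, against 245 on 3R and 212 on 2R, and with 5000 bp it held 54, against 61 on 3R, 58 on 2L and 57 on 2R. With peaks merged across 500 bp the X held 167, against 172 on 2R and 168 on 3R. Per Mb of span this was 5.18 on X, 5.06 on 2R, 3.94 on 2L, 3.91 on 3R and 3.61 on 3L, with 0.87 on chromosome 4. The X and 2R therefore stood side by side in density, but they differed in the number of peaks from which the domains came, 61.7 per Mb on X and 72.8 on 2R. The share of peaks that were broad was 8.40% on X (exact 95% binomial interval 6.99 to 9.99%), 7.03% on 2L (5.69 to 8.57%), 6.96% on 2R (5.73 to 8.35%), 6.10% on 3R (5.03 to 7.31%) and 5.43% on 3L (4.35 to 6.67%). On X it was 8.40%, against 6.33% (5.74 to 6.97%) on the 4 large autosomal arms together. With a width of 3000 bp or more the shares were closer, at 15.0% on X and 13.3% on these 4 arms together. Peaks of 2 to 4 kb made up 22.4% of the peaks on X and 22.6% of those on the 4 arms. The intervals cover counting error only and treat peaks as independent, which peaks lying close together are not. For chromosome 4, with 1 of 34 peaks, the interval ran from 0.0744 to 15.3% and gave no order against the other arms.

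The high count on X came mainly from domains of moderate width. Of all arm peaks, the X held 18.3%. The X held 62 of the 235 domains of 4 to 5 kb (26.4%), 27 of the 123 of 5 to 6 kb (22.0%), 17 of the 90 of 6 to 8 kb (18.9%) and 10 of the 58 of 8 kb or more (17.2%). Its median domain width of 4890.5 bp was under the 5184 bp of the 4 large autosomal arms, and the largest median was 5340.5 bp on 2L. Arm 3R had 18 domains of 8 kb or more, 2R had 14, 2L and X had 10 each and 3L had 6. The score ran the other way, with a median of 1149.75 for the domains of X and 849.88 for those of the 4 large autosomal arms. Of the 27 domains at or above 3100, the X held 12, 2R 7, 2L 4, 3L 3 and 3R 1.

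Over the 5 large arms together, the share of peaks that were broad was lower at the centromere side and higher at the telomere side. In the telomere-side 1 Mb of the 5 large arms together, 35 of 323 peaks were broad (10.8%, exact 95% interval 7.66 to 14.7%). In the centromere-side 1 Mb only 2 of 144 were (1.39%, 0.169 to 4.93%), and in the centromere-side 2 Mb 14 of 408 (3.43%, 1.89 to 5.69%). At the telomere side the counts were 10 of 65 peaks on 2L, 10 of 101 on 3L, 5 of 63 on 2R, 5 of 51 on 3R and 5 of 43 on X. The average per Mb over the whole arm was 3.94 on 2L, 3.61 on 3L, 5.06 on 2R, 3.91 on 3R and 5.18 on X. The raised number per Mb at the telomere side was thus mainly that of 2L and 3L. As a share of peaks, the telomere side was above the whole arm on each of the 5 large arms, by least on 2R, though from small counts. At the centromere side the first or last 1 Mb held 1 domain among 69 peaks on 3R, 1 among 33 on 3L, and 0 among 21 on X, 14 on 2L and 7 on 2R. The base of 3R thus held more peaks than the other centromere-side ends, near the 64.1 per Mb of its whole arm, but only 1 domain. Its centromere-side 2 Mb held 6 domains among 139 peaks. From the centromere-side end of the peaks, the first domain was reached after 1889 kb on 2R, 1563 kb on 2L, 1174 kb on X, 629 kb on 3R and 467 kb on 3L.

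Between the ends the density went up and down by region. With each span divided into bins of 10%, X reached 8.93 domains per Mb in the fourth bin and had 0.89 in the last, at the centromere. Arm 2R had 9.07 per Mb in the seventh bin beside 1.43 in the eighth. Arm 2L was fullest in the first bin, at the telomere, with 7.43 per Mb, and had 0.87 in the seventh. On 3L the values lay between 1.72 in the last bin, at the centromere, and 5.58 in the first and the ninth. On 3R they lay between 1.79 in the ninth bin, towards the telomere, and 6.45 in the second, towards the centromere.

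**Figure D2:**
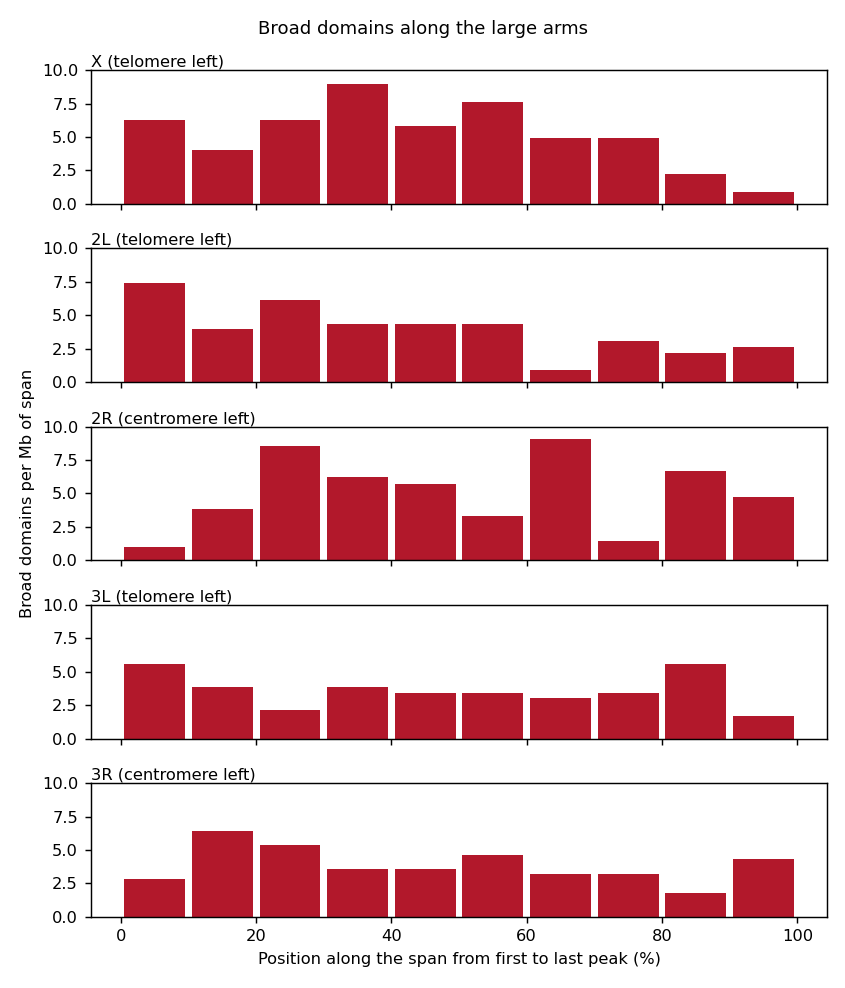
Broad domains per Mb (y axis) in each bin of 10% of the span from first to last peak (x axis, %) of X, 2L, 2R, 3L and 3R. The lowest bars are at the centromere end of X (0.89) and of 2R (0.95) and in the seventh bin of 2L (0.87), and the highest is in the seventh bin of 2R (9.07).

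In 115 windows of 1 Mb on the large arms the number of domains was 4.35 ± 2.86 (mean and SD over windows), with quartiles of 2 and 6. The fullest were 3R:5000001-6000000 and 2L:2000001-3000000 with 13 domains each, which together covered 95.8 kb in the first and 77.0 kb in the second. They were followed by 2R:5000001-6000000 with 12 and by X:8000001-9000000, 2L:1-1000000 and 3L:1-1000000 with 10 each. These windows differed in how many peaks they held. The window of 3R held 103 peaks and that of 2L only 57, so that the same number of domains came from very unequal numbers of peaks. The window with the most peaks of all, 2L:8000001-9000000, held 106 peaks and 5 domains.

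Domains and narrower peaks varied together only in part. Across the 115 windows, Spearman's rho between the number of domains and the number of narrower peaks was 0.39 and Pearson's r was 0.40. The windows share 1 library and 1 peak call, so this is a description. The 38 windows with the fewest narrower peaks held 2.95 ± 2.57 domains (SD), the 38 in the middle 4.74 ± 2.24 and the 39 with the most 5.33 ± 3.17. As a share of all peaks the domains made up 6.91%, 7.15% and 6.28% in these classes. Only 5 windows had 0 domains. Of these, 2R:1-1000000 had 5 peaks, 2L:17000001-18000000 had 17, 2L:15000001-16000000 had 21 and 2R:1000001-2000000 had 35, but 3L:7000001-8000000 had 73.

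At the finer scale of 100 kb, 854 of 1190 stretches held 0 domains, 209 held 1, 97 held 2 and 30 held 3 or more. Stretches without a peak of any width are among the 854. The fullest, with 5 domains each, were X:8300001-8400000, 2L:2100001-2200000 and 3R:12000001-12100000. In the stretch of X, 8 peaks covered 47.9% of the sequence, and 42.3 kb of that lay in the 5 domains. The stretches with most peaks were different ones. The 12 stretches with 20 or more peaks held 13 domains among 250 peaks (5.20%, exact 95% interval 2.80 to 8.73%), and 3 of them held 0. The share of peaks that were broad was 5.88% (4.52 to 7.51%) at 15 to 19 peaks, 7.50% (6.52 to 8.59%) at 10 to 14, 7.36% (6.44 to 8.37%) at 5 to 9 and 3.15% (2.05 to 4.61%) at 1 to 4. Counted per stretch, the mean number of domains rose with the number of peaks, which includes the domains. It was 0.079 at 1 to 4 peaks, 0.50 at 5 to 9, 0.87 at 10 to 14, 0.97 at 15 to 19 and 1.08 at 20 or more. In the same order, 7.55%, 34.0%, 53.4%, 62.9% and 75% of the stretches held a domain. Peaks of the list do not overlap, so the number of peaks in a stretch and their widths are not independent.

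Neighbouring domains were spaced very unevenly. The gap from the end of a domain to the start of the next on the same arm had a median of 101 kb over 500 neighbouring pairs, with quartiles of 21.1 and 295 kb. It was 20 kb or less in 121 pairs (24.2%) and 50 kb or less in 200 pairs (40%, exact 95% interval 35.7 to 44.4%). On the other hand 65 gaps were over 500 kb and 15 over 1 Mb. The median gap was 83.6 kb on X, 85.1 kb on 2L and 90.1 kb on 2R, and larger on 3L (122 kb) and 3R (129 kb). The share of pairs within 50 kb was less varied, at 42.6% on X, 41.6% on 2L, 40% on 2R, 38.9% on 3R and 36.1% on 3L.

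Seen from each domain, the nearest other domain lay at a median gap of 28.3 kb. From the peaks of 2 to 4 kb the nearest domain was 44.1 kb away, from those of 1 to 2 kb 58.5 kb and from those under 1 kb 85.0 kb. Another domain lay within 20 kb of 218 domains (43.1%), against 35.0% of the peaks of 2 to 4 kb and 27.5% of all narrower peaks. Within 50 kb the shares were 65.4% of domains, 52.3% of the peaks of 2 to 4 kb and 44.2% of all narrower peaks. A group of 131 domains had no other within 100 kb, and 14 had none within 500 kb.

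**Figure D3:**
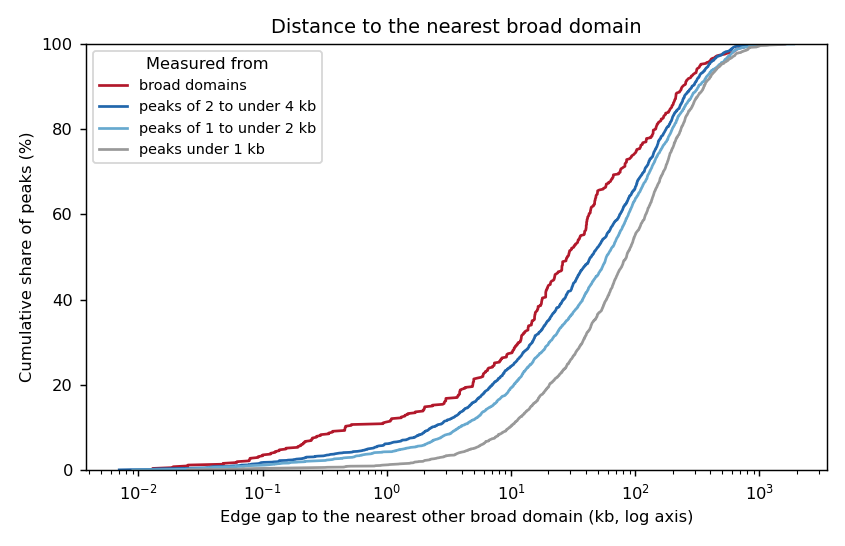
Cumulative share of peaks (y axis, %) by edge gap to the nearest other broad domain (x axis, kb, log axis), for broad domains and 3 classes of narrower peaks. The curve of the domains lies left of the others over most of its length, with a median of 28.3 kb against 44.1, 58.5 and 85.0 kb.

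Closeness to another domain showed no clear order by score, and a modest one by width. Within 50 kb the share was 63.4% at 4 to 5 kb, 65.0% at 5 to 6 kb, 67.8% at 6 to 8 kb and 70.7% at 8 kb or more. These differences were not tested. Another domain lay within 20 kb of 53.4% of the domains of 8 kb or more (exact 95% interval 39.9 to 66.7%), 48.9% of those of 6 to 8 kb (38.2 to 59.7%), 39.0% of those of 5 to 6 kb (30.4 to 48.2%) and 40.4% of those of 4 to 5 kb (34.1 to 47.0%). With the domains divided into 4 equal groups by score, from lowest to highest, the share was 45.7%, 40.5%, 42.1% and 44.1%, and the exact 95% intervals overlapped here as they did among the classes of width.

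Some pairs were nearly joined. The gap was 500 bp or less in 26 pairs and 100 bp or less in 9. The closest pair lay on 3R, where 25684138-25689106 (score 215.24) and 25689120-25696627 (score 1141.78) were 13 bp apart. The next were 2L:2167828-2173288 and 2L:2173308-2180238, 19 bp apart with scores of 837.94 and 1012.3, and 2R:12982392-12986409 and 2R:12986435-12991269, 25 bp apart with scores of 322.82 and 1499.18. Then came 3R:10108497-10113590 and 3R:10113639-10117768, 48 bp apart with scores of 2668.44 and 1047.57, and X:2185930-2191344 and X:2191407-2201076, 62 bp apart with scores of 2062.98 and 3100. In 16 of the 26 pairs the lower score was less than 50% of the higher one. The list does not tell whether such a pair is 1 enriched stretch that the peak caller divided.

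Chained at gaps of 20 kb or less, 288 domains stood alone, 158 formed 79 pairs, and 60 formed 18 chains of 3 or 4. The chains were 21.0 to 59.1 kb long and lay on X (5), 2L (4), 2R (4), 3R (3) and 3L (2). Domains filled 26.0 to 87.5% of their length, with a median of 57.3%. The longest, 3R:5901869-5961011, held 4 domains of 5011 to 14487 bp, one of them the third widest of all, and 36.0 kb of its 59.1 kb lay in domains. The chain X:8354380-8388387 held 3 domains, which filled 87.5% of its 34.0 kb, with 0 narrower peaks between them. It ends in the widest domain of the list.

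The other chains of 4 were 2L:2167828-2204014, 2R:14292898-14330900, 3R:12054341-12078097, 2L:2854696-2887559 and X:5779639-5813516. Of these the chain at 3R:12054341-12078097 was the most filled, at 82.1% of 23.8 kb, with scores of 685.07 to 2722.05. Scores within a chain could be far apart. In 3R:5901869-5961011 they ran from 104.29 to 2840.79, in 2R:14292898-14330900 from 76.22 to 900.05 and in 2L:6045265-6091949 from 53.49 to 1890.37. A domain scoring under 200 was present in 6 of the 18 chains. The other 12 held none. Among these, the scores in X:12612107-12648519 ran from 2139.67 to 3100 and those in 3L:13007300-13038957 from 432.47 to 610.54.

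**Figure D4:**
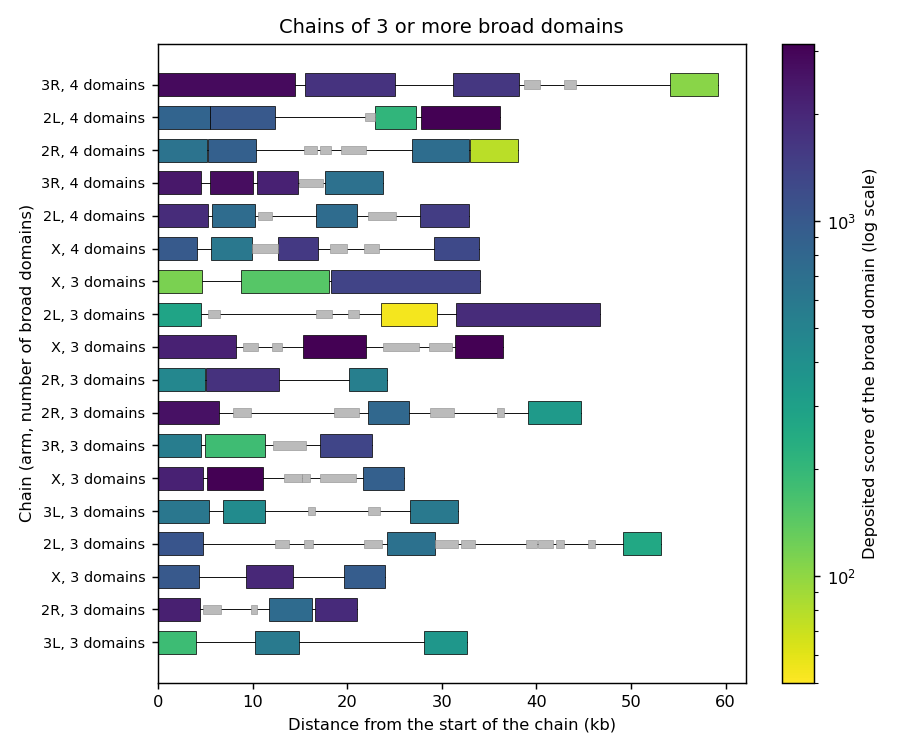
The 18 chains of 3 or more broad domains, drawn to scale from the start of each chain (x axis, kb), 1 row per chain with its arm and number of domains (y axis). Boxes are domains coloured by deposited score on a log scale and small grey boxes are narrower peaks; 4 chains hold 0 narrower peaks, and 6 hold a domain scoring under 200.

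Each arm also had a long stretch without a domain that was not empty of peaks. On 2L the longest ran from 16889692 to 18964804 (2075 kb) and held 80 narrower peaks, 38.6 per Mb against 52.1 per Mb over the arm, the widest of them 3972 bp. On 2R it was the centromere-side end, 129820 to 2018598 (1889 kb), with 42 narrower peaks or 22.2 per Mb against 67.7. On 3L it ran from 21271933 to 22861819 (1590 kb) with 76 peaks or 47.8 per Mb against 62.9. On X it ran from 19503249 to 20922680 (1419 kb) with 61 peaks or 43.0 per Mb against 56.5, and on 3R from 12276354 to 13503035 (1227 kb) with 58 or 47.3 per Mb against 60.2. On chromosome 4 the first 972 kb of the span held 27 narrower peaks and 0 domains. Narrower peaks were thus thinner than the arm average in each of these, by least on chromosome 4, with 27.8 per Mb against 28.9. The greatest number of narrower peaks between neighbouring domains was 106, in 2L:3059830-4975429 (1916 kb), which is 55.3 per Mb and close to the average of the arm.

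Narrower peaks lay close beside the domains, about as often as beside peaks of medium width. A narrower peak was found within 5 kb of 409 of the 506 domains (80.8%, exact 95% interval 77.1 to 84.2%), against 81.3% (79.4 to 83.2%) of the peaks of 2 to 4 kb and 70.7% (68.8 to 72.5%) of those under 1 kb. The mean number of narrower peaks within 5 kb was 1.53 ± 1.13 for the domains (SD over domains), 1.52 ± 1.12 for the peaks of 2 to 4 kb and 1.32 ± 1.24 for those under 1 kb. The median gap to the nearest narrower peak was 1336.5 bp for the domains and 1396 bp for the peaks of 2 to 4 kb. Counted to any peak, the nearest edge was 500 bp or less away from 208 domains (41.1%, interval 36.8 to 45.5%), against 34.8% (32.5 to 37.1%) of the peaks of 2 to 4 kb. It was 100 bp or less away from 88 domains (17.4%, 14.2 to 21.0%), against 13.97% (12.4 to 15.7%).

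Few domains lay far from every other peak. No peak of any width lay within 10 kb of 17 domains (3.36%), against 4.81% of the peaks of 2 to 4 kb and 15.4% of those under 1 kb. The most isolated was X:1510341-1515773, 5433 bp wide with a score of 1386.52, whose nearest peak was 43.1 kb away. The most accompanied was 2R:5721987-5725997, 4011 bp wide with a score of 253.37, which had 6 narrower peaks within 5 kb.

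The peaks beside the domains were themselves wider than the rest. The 740 narrower peaks within 5 kb of a domain (10.5% of all narrower peaks) had a median width of 1653 bp and 36.5% of them were 2 kb or wider, against 1244 bp and 22.7% for the 6310 farther away. Their median score was 209 with quartiles of 108 and 400.7, against 182.9 with quartiles of 97.5 and 365. The same comparison was not made beside peaks of 2 to 4 kb, so it is not shown to be particular to the domains.

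The dense cover of peaks around the domains reached beyond 20 kb. From 2 to 3 kb outside a domain edge, 34.5% of the sequence lay in another peak, against 30.4% beside peaks of 2 to 4 kb, 26.1% beside those of 1 to 2 kb and 16.9% beside those under 1 kb. The mean over the arm spans was 11.4%. The value beside domains was 29.3% at 5 to 7.5 kb, 21.9% at 15 to 20 kb, 16.2% at 40 to 50 kb and 13.5% at 75 to 100 kb. At 30 to 40 kb it was already level with that beside peaks of 2 to 4 kb, at 16.6% and 16.5%. At 50 to 75 kb it was 13.6% beside domains, 13.7% beside peaks of 2 to 4 kb and 13.6% beside those of 1 to 2 kb. At 75 to 100 kb the values beside these narrower classes were 12.8% and 12.7%, a little under that beside domains. Within the first 0.5 kb the value was lower, 14.8% beside domains. When only narrower peaks were counted, the coverage at 2 to 3 kb was 26.8% beside domains and 25.03% beside peaks of 2 to 4 kb, so that part of the distance between these classes came from other domains nearby.

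**Figure D5:**
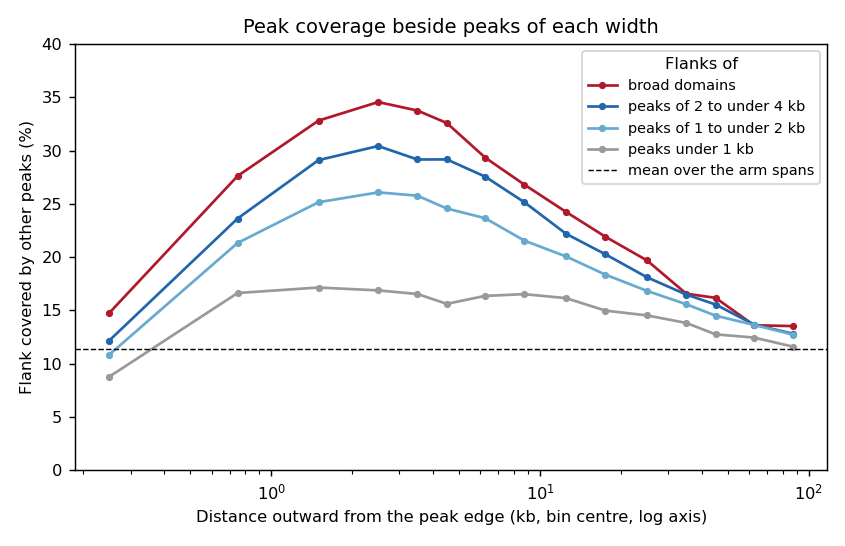
Share of the flanking sequence inside another peak (y axis, %) by distance outward from the peak edge (x axis, kb, log axis), for broad domains and 3 classes of narrower peaks; the dashed line is the mean over the arm spans, 11.4%. The curve of the domains is highest at 2 to 3 kb (34.5%). It is level with those of the peaks of 1 to 4 kb at 50 to 75 kb and lies a little above them at 75 to 100 kb.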

How the data were processed

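The peak list of the ChIP sample was read as deposited. MACS made the peak calls, per the file headers. Bowtie is the aligner and BDGP5 the build named in the submitters' processing notes. Their versions and settings, and any pooling of replicates, are not stated in the sources used here. The score per peak is the authors' deposited value. Its floor was 50 and its top values repeat at 3100. A score and a width from 1 call can both depend on read depth, which is unknown.

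Starts were printed from 1. Gaps are edge to edge, and windows and stretches hold peaks by midpoint. Spans run from first to last peak of an arm. Exact Clopper-Pearson intervals of 95% were computed with scipy 1.17.1, and other values with Python 3.11.15, numpy 2.4.6 and pandas 2.3.3. The functions were tested on simulated data. No test was run, because 1 list stands for the ChIP replicates and the rule used the width. Named regions were the widest, the lowest in score, the closest, the chained, the fullest and the emptiest. Listing all 27 domains at or above 3100 was replaced by counts. The domains and measures were chosen with earlier results of these data known. The gene table at hand is of a different release, so no gene was placed and no sequence is shown.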

Additional observations from a re-analysis of the deposited data

How the results depend on the processing

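The share of the domains that lay on X was 22.9%, with a wide interval of 19.3 to 26.8%. It stayed inside this interval in all 4 alternatives (19.9 to 23.2%), whose sets overlap with the main set. The shares of 2L, 2R, 3L and 3R stayed inside their own intervals, 2L at 5000 bp only just under its limit of 21.4%. The X held 18.3% of all arm peaks. Its share of the domains was nearer to this with 3000 bp (20.2%, interval 17.8 to 22.8%) and with 5000 bp (19.9%, 15.3 to 25.2%). After merging it was 20.8%. The X was first in number of domains with 4000 bp and among peaks at or above the median score, but not with 3000 bp, with 5000 bp or after merging. The set at or above the median score kept 478 of the 506 domains, and 111 of the 116 on X. Its order was thus nearly fixed in advance. The share of neighbouring domains within 50 kb, 40%, was 56.5% with a width of 3000 bp, 25.6% with 5000 bp, 47.6% with peaks merged within 500 bp, 26.8% for a gap of 25 kb and 49.8% for 100 kb. The share with a narrower peak within 5 kb, 80.8%, was 75.3% with a width of 3000 bp, 70.4% after merging, 56.7% among peaks at or above the median score, 58.3% for a gap of 2 kb and 93.3% for 10 kb. The share of domains scoring 1000 or more, 46.6%, was 33.3% with 3000 bp, 57.2% with 5000 bp and 37.9% after merging. A lower width or merging adds domains and a higher one removes them, which changes the spacing by construction. Merging within 500 bp gave 802 regions of 4000 bp or more, 1.58 times the listed number, of which 325 held 0 listed domains. No paired analysis was possible because 1 list stands for the ChIP replicates. For the same reason no replicate could be left out. The alternatives on gene loci were not run.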

Other observations

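Peaks whose edges lay 500 bp or less apart were also joined. Whether the joined peaks are 1 enriched stretch was not tested. Of the 506 listed domains, 208 were joined to at least 1 other peak. The merged list held 73 regions of 10 kb or more, where the deposited list held 16. The widest merged region was X:8363118-8388387 with 25270 bp, made of 2 listed domains. The second, 3L:8672236-8696324 with 24089 bp, was made of 7 listed peaks, 2 of them domains. Only 1 merged region held 3 listed domains, at 3R:12059827-12081401 with 21575 bp and 6 parts.

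Domains seldom bordered stretches without peaks. A peak-free interval of over 50 kb began at the edge of 30 domains (5.93%, exact 95% interval 4.04 to 8.36%). The share was 7.98% (6.74 to 9.37%) of the peaks of 2 to 4 kb, 10.5% (9.43 to 11.7%) of those of 1 to 2 kb and 20.3% (18.7 to 21.9%) of those under 1 kb. These differences were not tested.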
